A study of Setaria italica with 6 samples.

Results

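New loci are the 2302 rows, of 36886 in each deposited table, that carry an identifier of the form NewGene followed by a serial number. The other 34584 rows carry a Seita identifier of the foxtail millet annotation and are called annotated genes here. Members were taken by identifier alone, and every one of the 2302 was kept. RNA came from spikelets of foxtail millet (Setaria italica), a small-grained cereal, collected 3 days after flowering from greenhouse plants under 14 h of light at 30 °C. The wild type (WT) is the inbred line Yugu1, and the other genotype is the mutant Siysl1, with 3 libraries from separate individuals of each. SiYSL1 is by its name a yellow stripe-like transporter, a family of membrane proteins that carry chelated iron and related metals. The title of every mutant library calls it Siysl1, but the genotype field of replicate 2 names SiYSL2 and that of replicate 3 names SiYSL3. The titles were followed, and a fit of Siysl1 replicate 1 alone against WT, whose spread comes from the WT libraries only, was run as an alternative. The sources used here do not give the allele of the mutant or how it was made, and the SiYSL1 transcript and markers of spikelet tissue were not analysed here because no source pairs the identifiers with gene names.

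Reads from an RNA library can fall where a genome annotation has no gene model, and analysis pipelines commonly assemble such reads into additional transcript models that are counted beside the annotated genes. Models of this kind are known to include protein-coding genes that the annotation missed, long non-coding RNAs, transcripts of transposable elements, and extensions or fragments of neighbouring genes. In cereals, where transposable elements fill much of the intergenic space and lines differ in gene content, all these classes are known to occur. The sources used here do not say which class any of the 2302 loci belongs to, or how the loci were defined. The supplied RefSeq gene table matched 0 of them, and neither their positions nor their sequences were available for use here, so each is named by identifier only and given no role.

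Library totals ran from 30368325 to 32691355 counts. Across all rows, Siysl1 replicate 1 stood apart from the other mutant libraries, with 7.09 and 7.19 chi-square units per row against replicates 2 and 3, which differed from each other by 2.11. Over the new loci alone these values were 4.03, 3.74 and 2.58, against 3.71 to 3.95 among WT pairs. No pair of libraries came down to the 1 unit that counting noise alone gives. Over 851 new loci with a mean of at least 1 CPM (the count relative to library size, with TMM scaling), libraries correlated at 0.985 to 0.992 within genotypes and at 0.911 to 0.918 between them, a description across loci.

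Most new loci were weakly expressed. Their median level was 0.419 CPM (mean over all 6 libraries), against 3.86 CPM for the annotated genes. Per length the gap was similar, with a median of 0.375 FPKM (fragments scaled by model length and library size) for new loci and 3.49 FPKM for annotated genes. Every new locus had a count in at least 1 library, whereas 5003 annotated genes had none in any. Whether that contrast follows from how the new loci were defined was not tested. A count in all 6 libraries was found for 1357 new loci, and 201 had counts in 1 library only. The upper end was thin: 289 new loci reached a mean of 10 CPM and 14 reached 100 CPM, while 13494 and 2146 annotated genes did. At the other end, 727 new loci stayed under 10 counts in every library.

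Where a length could be computed, the new loci were by their median not shorter than the annotated genes. The count, the FPKM and the library total of a row together imply the length that the authors' FPKM was computed with. This implied length could be computed for 1575 new loci, those with at least 10 counts in a library, and its scale assumes that FPKM was set against the column total of the count table. The median was 1382 bases in new loci and 1301 bases in 25232 annotated genes. The middle 50% of new loci lay between 935 and 2254 bases, and 95% of them lay above 562 bases, against 365 bases for annotated genes. The longest new locus reached 8823 bases and the shortest 275 bases.

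**Figure D1:**
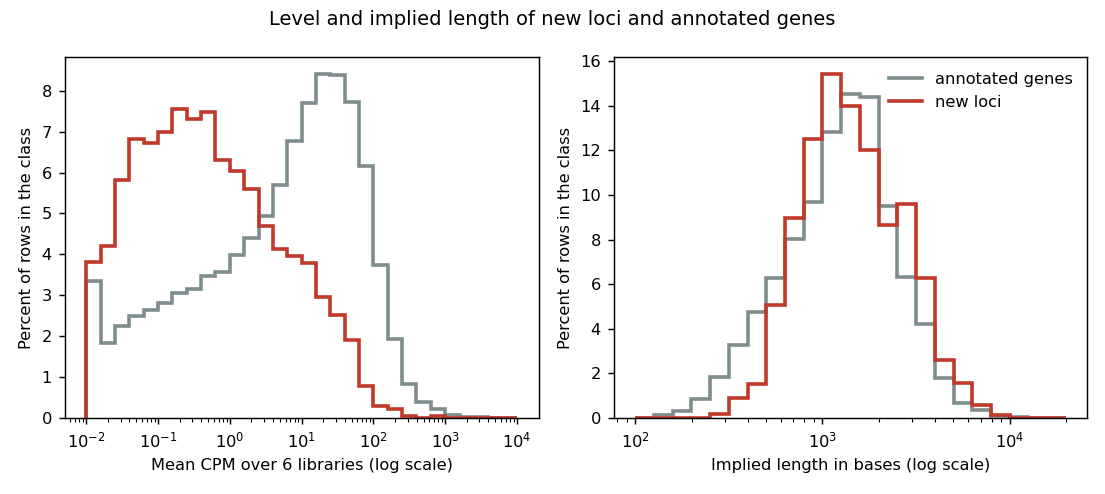
Distribution of mean CPM over the 6 libraries (left) and of implied length in bases (right), as percent of the rows of each class, for new loci (red) and annotated genes (grey). Rows without a count are left out on the left, and its first bin also holds all lower values; new loci centre near 0.419 CPM with a long right tail, while the length curves largely overlap.

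The new loci together took little of each library. Their share of all counts was 1.374, 1.341 and 1.331% in the WT libraries and 1.315, 1.282 and 1.280% in the Siysl1 libraries. The genotypes did not overlap, with means of 1.349% ± 0.023 (SD, n = 3) in WT and 1.292% ± 0.020 in Siysl1. An exact two-sided permutation test over libraries gave p = 0.1, the smallest that 3 against 3 allows. The shares are of unscaled counts. TMM factors, which averaged 0.966 in WT and 1.034 in Siysl1, would lower the Siysl1 shares relative to WT and were not applied. In unscaled counts the direction of that difference of -0.0564 percentage points depended on a single locus. Without NewGene_1506, the most abundant, the means were 1.230% ± 0.020 in WT and 1.248% ± 0.022 in Siysl1, the libraries overlapped, and the direction turned (exact permutation p = 0.4). Without the next one as well, NewGene_2598, Siysl1 was the higher at 1.226% ± 0.024 against 1.182% ± 0.022, with no overlap (exact permutation p = 0.1, the smallest possible). The mean TMM factors of the genotypes differ by a larger ratio than either of these reduced shares. With the factors applied WT would stay the higher in both, so the turn in direction holds for unscaled counts only. The number of new loci with at least 10 counts was 1260, 1219 and 1249 in WT and 1244, 1266 and 1267 in Siysl1. These ranges overlapped (exact permutation p = 0.3), and with a limit of 0.5 CPM in place of counts the mean difference was -1 locus instead of 16.3.

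**Figure D2:**
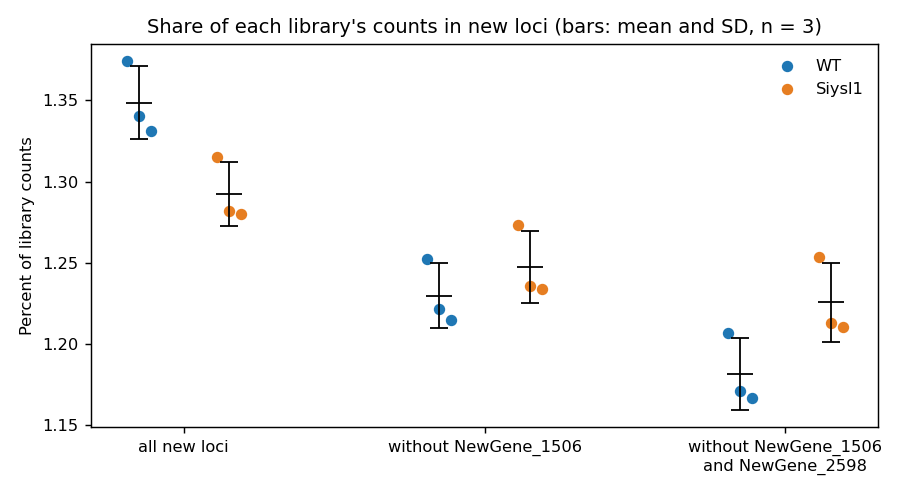
Percent of each library's unscaled counts that fell in new loci, for all of them, without NewGene_1506, and without NewGene_1506 and NewGene_2598. Points are libraries, and black bars give the mean and SD of 3 libraries; the axis does not start at 0. WT lies above Siysl1 on the left (1.349 against 1.292%) and below it on the right (1.182 against 1.226%).

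NewGene_1506 stood 71st of all 36886 rows by mean CPM. It had 1256, 1232 and 1206 CPM in the WT libraries and 404, 450 and 442 CPM in the Siysl1 libraries. The genotypes were far apart and the libraries within each close together. Its log2 fold change was -1.51 ± 0.05 (SE; edgeR quasi-likelihood test, adjusted p = 1.98e-13), a fall of 2.85-fold. Its implied length was 1042 bases, and per length it held 1142 ± 25 FPKM in WT and 428 ± 23 FPKM in Siysl1, the highest of the new loci. Of the new-locus counts it alone made up 8.82% ± 0.08 in WT libraries and 3.46% ± 0.23 in those of Siysl1 (exact permutation p = 0.1).

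NewGene_2598 followed, with 470, 522 and 502 CPM in WT and 185, 220 and 231 CPM in Siysl1. All mutant libraries again lay below all WT libraries. It fell by 1.23 ± 0.07 on the log2 scale (edgeR adjusted p = 2.44e-10). Its implied length of 1122 bases was close to that of NewGene_1506, and its level per length was 429 ± 22 FPKM in WT and 195 ± 21 FPKM in Siysl1.

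The next 8 loci, with means over the 6 libraries of 134 to 234 CPM, changed by at most 1.29-fold. NewGene_415 was the clearest, with 186, 183 and 205 CPM in WT and 148, 147 and 151 CPM in Siysl1. Its genotypes stood apart, with a fall of 0.36 ± 0.05 on the log2 scale (edgeR adjusted p = 1.29e-05). NewGene_2858 fell by 0.30 and NewGene_2934 rose by 0.30 on the log2 scale, and these 3 kept their calls in every setting tried. NewGene_2581 also fell (-0.16, edgeR adjusted p = 0.0329), but not without a scaling factor (adjusted p = 0.421), with Siysl1 replicate 1 alone (-0.04, adjusted p = 0.661) or without any one of WT replicates 1 and 3 and Siysl1 replicates 2 and 3 (adjusted p from 0.1 to 0.161). NewGene_2174, NewGene_2912, NewGene_1456 and NewGene_2250 were not called. NewGene_2174, the third by level, had 242, 245 and 237 CPM in WT and 234, 222 and 224 CPM in Siysl1, so the libraries did not overlap although the test was not passed (log2 fold change -0.09, 95% interval -0.18 to 0.0005, edgeR adjusted p = 0.0816). NewGene_2912 passed as higher without a scaling factor (0.19, edgeR adjusted p = 0.00589) and with limma on log2(FPKM + 1) (0.19, adjusted p = 0.0254). It also passed without WT replicate 1 (0.15, edgeR adjusted p = 0.0284) and with a replicate block (0.10, adjusted p = 0.0404).

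Ranked per length, NewGene_926, NewGene_1872 and NewGene_757 came next after NewGene_1506 and NewGene_2598. NewGene_926 had 201 ± 16 FPKM in WT and 213 ± 4 FPKM in Siysl1 and was not called (log2 fold change -0.01, 95% interval -0.13 to 0.11). NewGene_1872 was also not called, and NewGene_757 fell by 0.24 on the log2 scale (edgeR adjusted p = 0.00249; 0.0503 with limma on log2(FPKM + 1)).

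The counts of 78 loci made up 50% of all new-locus counts. The 100 most abundant held 57.8% ± 0.1 of them in WT and 54.7% ± 0.2 in Siysl1, without overlap (exact permutation p = 0.1, the smallest possible).

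Of the 2302 new loci, 1279 passed the filter on low counts and were tested, and 1023 were not. Called loci, those with an adjusted p under 0.05 in the edgeR quasi-likelihood test adjusted over all 25117 rows tested, were 269 higher in Siysl1 and 333 lower. That is 47.1% of the tested new loci, where 58.6% of all rows tested were called (29.9% higher and 28.7% lower). The median log2 fold change of the tested new loci was -0.05, against 0.01 over all rows. Among called rows the median size of change was 0.95 in new loci and 0.62 over all rows, without matching for level. The balance of directions depended on scaling. Of the called new loci 44.7% were higher; without a scaling factor 321 were higher and 266 lower, or 54.7% higher. That setting moved the median of all rows to 0.11 and that of the new loci to 0.05, so the new loci stayed below the whole table under both. With limma on log2(FPKM + 1) 192 were higher and 142 lower (57.5% higher), with medians of 0.04 for new loci and 0.09 for all rows tested.

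How a locus passed the filter fixed much of what it could show. The filter asks for at least 0.317 CPM in 3 libraries, so a locus silent in one genotype passes only through the other. Above that level in all 6 libraries were 969 new loci, of which 201 rose and 252 fell, or 46.7%. Another 120 passed through WT, of which 81 fell and 0 rose, and 123 passed through Siysl1, of which 67 rose and 0 fell; those directions follow from the filter. The last 67 reached the level in a mix of libraries, and 1 of them was called.

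Changes of at least 2-fold were found in 135 new loci that rose and 154 that fell, against 10.9% and 7.61% of all rows tested. At least 4-fold changes numbered 47 higher and 62 lower, or 8.52% of tested new loci against 5.98% of all rows tested (3.0% higher and 2.98% lower). Of these 35 of the higher and 46 of the lower had passed the filter through 1 genotype only. Among loci above the level in all 6 libraries, 12 rose and 16 fell by at least 4-fold, 2.89% against 2.81% of all such rows. The counts also moved with the filter. A filter on a mean of 0.5 CPM, which does not look at genotype, left 31 higher and 36 lower at 4-fold. The libraries of the genotypes did not overlap for 673 tested new loci, or 52.6%, against 64.0% of all rows tested, and 577 of the 602 called loci were among them.

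**Figure D3:**
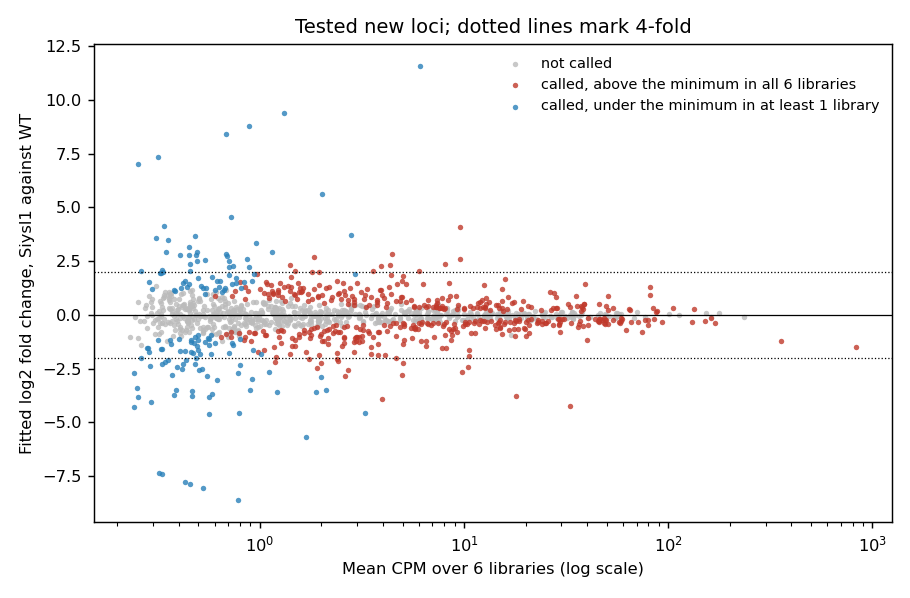
Fitted log2 fold change of Siysl1 against WT for the 1279 tested new loci, against mean CPM over 6 libraries on a log axis. Grey points were not called, red points were called and above the filter's level in all 6 libraries, blue points were called but under it in at least 1; dotted lines mark 4-fold. The 2 points furthest right are NewGene_2598 and NewGene_1506, both lower in Siysl1, and most points beyond 4-fold are blue and weakly expressed.

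Level and length were then matched. Tested annotated genes were sorted into 10 bins of mean CPM and 5 bins of implied length cut from the tested new loci, and the share called in each bin was weighted by the number of new loci there. This is a description across rows without a test. Matched annotated genes (23058 in the bins) were called in 54.0% of cases, between the 47.1% of new loci and the 59.3% of all tested annotated genes. The gap lay on the side of rises. New loci rose in 21.0% of cases and matched annotated genes in 31.9%, while falls made up 26.0% and 22.1%. At 2-fold, 10.6% of new loci rose against 17.7% of matched annotated genes, and falls were 12% against 11.9%. At 4-fold or more the unmatched order turned round, with 8.52% of new loci against 11.3% of matched annotated genes, although 5.85% of all tested annotated genes changed that much. The mean absolute log2 fold change turned likewise, at 0.776 in new loci, 0.965 in matched annotated genes and 0.65 in all tested annotated genes. In rows above the filter's level in all 6 libraries it was 0.516 in new loci and 0.599 in matched annotated genes.

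The lower share of rises was also found in the following settings. Without a scaling factor 25.1% of new loci and 37.0% of matched genes rose, and 20.8% and 18.6% fell. With limma on log2(FPKM + 1) rises were 26.7% and 41.4%. With Siysl1 replicate 1 alone against WT they were 14.5% and 24%. Leaving out each library in turn gave 18.0 to 19.8% against 28.2 to 31.2%. Restricted to rows above the filter's level in all 6 libraries, rises were 20.7% and 31.8%, falls 26.0% and 19.9%, and 4-fold changes 2.89% and 3.20%. Spread between replicates differed little after matching: the mean biological coefficient of variation was 0.149 in new loci and 0.144 in matched annotated genes, against 0.095 in all tested annotated genes.

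Split by level alone into 5 bins, the called share of new loci was the lower in each, but its interval held the annotated share in 4 of the 5; the difference was not tested. In the lowest bin, 0.232 to 0.589 CPM, 37.5% of 256 new loci were called (exact 95% interval 31.5 to 43.7%) and 41.2% of annotated genes. In the second bin the values were 34.4% (28.6 to 40.5%) and 46.4%, outside the interval. In the next 2 bins they were 48.2% (42.0 to 54.6%) and 53.9%, and 55.9% (49.5 to 62.0%) and 58.3%. In the highest bin, from 12.1 CPM up, they were 59.4% (53.1 to 65.4%) and 64.6%. The intervals treat loci as independent and cover counting error only. By length the shares of new loci climbed from 36.3% in the shortest bin, under 999 bases, to 62.9% in the longest, above 2810 bases. Annotated genes had 56.3, 61.3, 62.9, 60.9 and 58.9% from the shortest bin to the longest. Only in the longest bin were new loci called more often than annotated genes. The length bins were not matched for level. In new loci the replicate spread fell over the same bins, with a median biological coefficient of variation of 0.177 in the shortest and 0.0771 in the longest; its part in the climb was not tested.

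**Figure D4:**
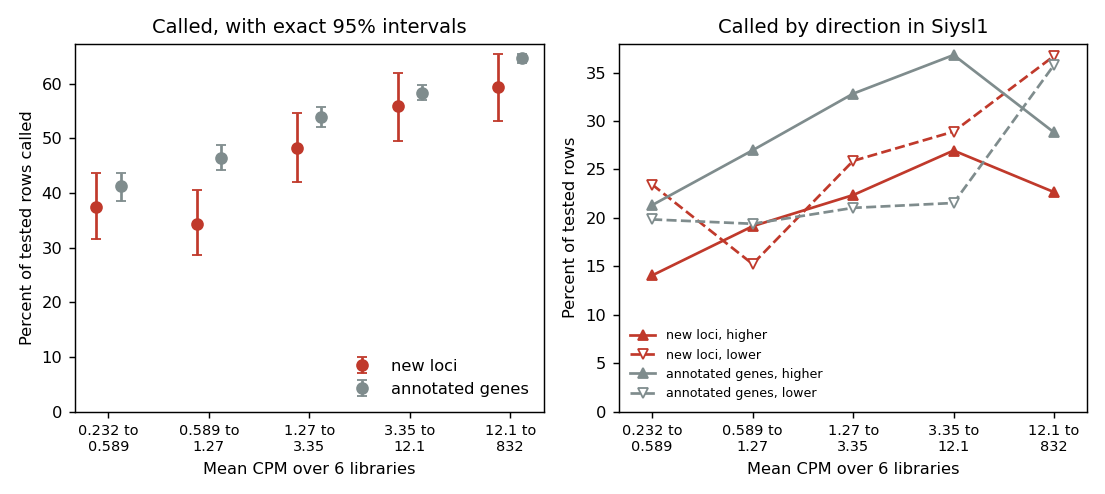
Left, percent of tested rows called in 5 bins of mean CPM, for new loci (red) and annotated genes (grey), with exact 95% binomial intervals. Right, the same split into rows higher (filled, solid) and lower (open, dashed) in Siysl1 as percent of tested rows. In every bin the red solid line lies below the grey solid line, and the called share of new loci runs from 34.4 to 59.4%.

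To look past the weakest loci, only those with counts in all 6 libraries, a call and no overlap were ranked. They also had to average 5 CPM or more in either genotype. Of these, 114 were higher in Siysl1 and 155 lower. No share of all rows was taken for this rule, so that balance is not compared with the whole table. The largest rise was that of NewGene_2086, a locus of 5065 bases implied length. It had 1.09, 0.885 and 1.23 CPM in WT and 17.2, 17.9 and 19.4 CPM in Siysl1. Its log2 fold change was 4.08 ± 0.14 (SE; edgeR adjusted p = 7.7e-13), or 16.9-fold. NewGene_190 came second, with 17, 12 and 6 counts in WT and 186, 186 and 140 in Siysl1. Its rise was 13.3-fold (log2 fold change 3.74 ± 0.27, edgeR adjusted p = 5.86e-09), but it passed the filter only through Siysl1.

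NewGene_1228 had 1.29, 0.987 and 0.965 CPM in WT and 8.79, 6.75 and 7.81 CPM in Siysl1, a rise of 7.16-fold (edgeR adjusted p = 1.22e-09). NewGene_1200 went from 2.90, 2.59 and 2.63 CPM to 15.7, 16.2 and 17.3 CPM, or 6.04-fold (edgeR adjusted p = 1.45e-11). The remaining 6 of the first 10 were NewGene_2006, NewGene_353, NewGene_1202, NewGene_1633, NewGene_1783 and NewGene_1, with rises between 3.61-fold and 5.10-fold. Implied lengths in the first 10 ran from 2075 to 6575 bases. The median of all tested new loci was 1592 bases, but those were not held to the minimum of 5 CPM.

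The steepest fall was that of NewGene_1148, with 226, 155 and 190 counts in WT and 8, 6 and 12 in Siysl1. Its log2 fold change was -4.56 ± 0.25 (SE; edgeR adjusted p = 2.78e-10), or 23.5-fold lower, and it passed the filter only through WT. NewGene_174 had the highest level among the 10 steepest falls. It had 57.9, 67.0 and 63.1 CPM in WT and 2.78, 3.63 and 3.55 CPM in Siysl1, a fall of 18.8-fold (log2 fold change -4.23 ± 0.10, edgeR adjusted p = 9.65e-15). Per length it dropped from 46.1 ± 3.3 FPKM to 2.60 ± 0.36 FPKM. All 3 mutant libraries stayed near one low level.

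NewGene_833 had 8.92, 7.97 and 5.36 CPM in WT and 0.469, 0.535 and 0.486 CPM in Siysl1, 14.8-fold lower (edgeR adjusted p = 9.42e-10). NewGene_566 went from 31.7, 32.8 and 35.8 CPM to 2.03, 2.38 and 2.92 CPM, 13.7-fold lower (edgeR adjusted p = 2.06e-13). After these 4 there was a step down in size. NewGene_256, NewGene_925, NewGene_2157, NewGene_1083, NewGene_2132 and NewGene_989 fell by between 3.70-fold and 6.93-fold. The first 10 falls had implied lengths of 629 to 5878 bases. Each of the 20 loci kept its direction and its call in every setting in which it was tested.

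**Figure D5:**
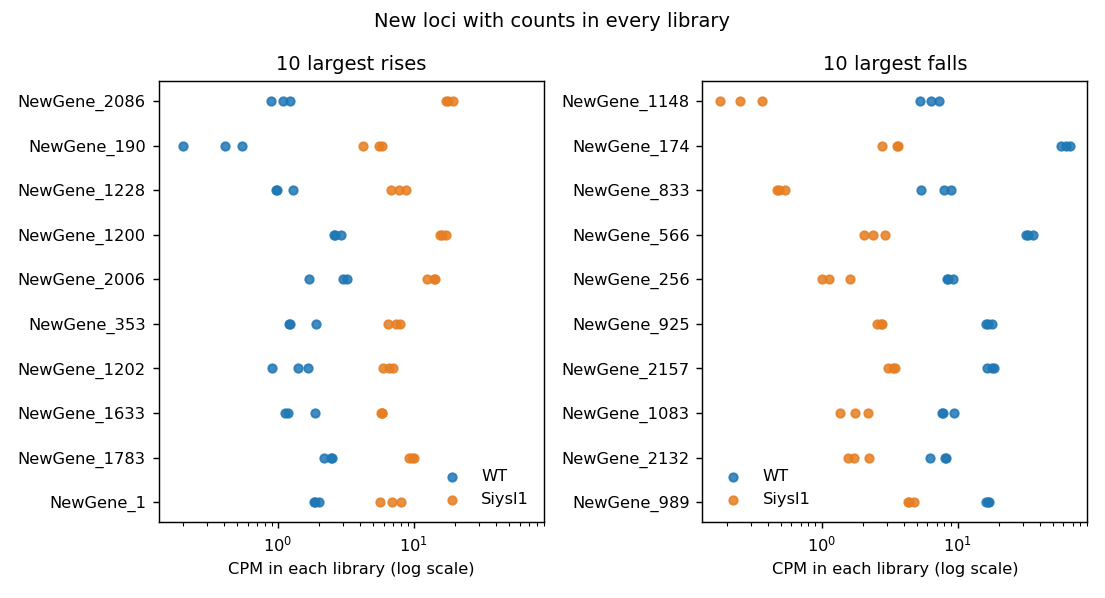
CPM in each library, on a log axis, of the 10 new loci with the largest rises (left) and the 10 with the largest falls (right) among those with counts in every library. Blue points are WT and orange points Siysl1. In each row the groups stand apart, which the rule of choice required. The fitted change was 16.9-fold for NewGene_2086 and 23.5-fold for NewGene_1148.

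Some new loci had counts in 1 genotype only. With at least 10 counts in each library of one genotype and 0 in all of the other, 6 were found in WT and 7 in Siysl1, where 0.328% and 0.1% of all rows in the table met the same rule. A count of 0 allows up to 3 counts per library, and the folds below are bounds against that floor, which covers counting error only. NewGene_1602 was by far the strongest, with 0 counts in all WT libraries and 414, 402 and 387 counts in Siysl1 (12.2 ± 0.6 CPM), at least 123-fold higher. NewGene_2477 had 100, 88 and 70 counts in Siysl1, NewGene_2049 had 50, 69 and 55, and NewGene_2313 had 38, 40 and 56. These are at least 26.4-, 17.7- and 13.7-fold higher. NewGene_1701, NewGene_1483 and NewGene_1763 had 10 to 29 counts in each Siysl1 library, with bounds of 5.11 to 6.41-fold. The rule that chose these loci fixed their direction, so their counts are a description and no test is given.

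The WT-only loci averaged 0.639 to 1.56 CPM in WT, within the range of the Siysl1-only loci in Siysl1, 0.508 to 12.2 CPM. For NewGene_273 the WT libraries held 49, 52 and 40 counts and the mutant libraries 0, so it was at least 17.1-fold lower in the mutant. NewGene_3042 had 26, 36 and 33 counts and NewGene_873 had 27, 29 and 26, at least 11.5- and 9.93-fold lower. NewGene_120, NewGene_929 and NewGene_1559 had 12 to 34 counts in each WT library, with bounds of 6.99 to 9.37-fold. They too are given as a description. No WT-only locus reached 2 CPM on average in WT, whereas NewGene_1602 and NewGene_2477 did in Siysl1. With Siysl1 replicate 3 left out the WT-only loci numbered 10; fewer libraries make the rule easier to meet.

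Some loci were measured precisely and still not called. Among new loci that were not called, the 5 with the narrowest 95% intervals were NewGene_2174, NewGene_1456, NewGene_2250, NewGene_2502 and NewGene_1370. Their intervals lay within -0.20 and 0.19 on the log2 scale, which leaves room for changes of that size. For NewGene_2174, NewGene_1456 and NewGene_2250 the genotypes did not overlap, and the unadjusted interval of NewGene_1456 (-0.20 to -0.01) left out 0. NewGene_2502 had 94.4, 98.7 and 104 CPM in WT and 102, 105 and 103 CPM in Siysl1, with overlapping libraries (log2 fold change 0.06, 95% interval -0.04 to 0.17, edgeR adjusted p = 0.304). Some of these loci were called in other settings. NewGene_2502 and NewGene_2250 were called as higher without a scaling factor, with log2 fold changes of 0.16 and 0.19. NewGene_2250 was also called as higher with limma on log2(FPKM + 1) (0.21, adjusted p = 0.00453) and with Siysl1 replicate 1 alone (0.16, edgeR adjusted p = 0.0401). NewGene_1456 and NewGene_2174 were called as lower by DESeq2 (-0.11 and -0.10), with a replicate block (edgeR adjusted p = 0.0223 and 0.0379) and without Siysl1 replicate 1 (-0.13 and -0.11, edgeR adjusted p = 0.0158 and 0.0156). NewGene_1370 was called in no setting.

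The 5 longest tested loci, with implied lengths from 6798 to 8823 bases, moved in both directions. NewGene_31, the longest, had 35.2, 30.2 and 30.7 CPM in WT and 50.9, 41.8 and 43.2 CPM in Siysl1. It rose by 0.50 ± 0.08 on the log2 scale (edgeR adjusted p = 5.86e-05). NewGene_1000 rose more, from 7.57, 8.48 and 6.52 CPM to 24.3, 23.4 and 25.2 CPM (3.23-fold, edgeR adjusted p = 4.57e-10). NewGene_1674 and NewGene_2443 fell, by 0.71 and 0.41 on the log2 scale, and NewGene_2573 did not pass (0.14, edgeR adjusted p = 0.0656). NewGene_2573 was called as higher without a scaling factor (0.24), with upper-quartile scaling (0.16), with Siysl1 replicate 1 alone (0.21), with a replicate block (0.14, edgeR adjusted p = 0.0151) and without WT replicate 1 (0.18, edgeR adjusted p = 0.0415). The fall of NewGene_2443 did not pass with limma on log2(FPKM + 1) (adjusted p = 0.0819).

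Within a genotype a few new loci were on in one plant and off in another. Counts of at least 20 in 1 library and 0 in another of the same genotype were found for 4 new loci in WT and 5 in Siysl1, and for 20 and 23 annotated genes. That is 0.370% and 0.450% of the new loci that reached 20 counts in a library of that genotype, and 0.0889% and 0.101% of such annotated genes. These loci were looked for after the values had been seen, and no test was made. The classes were not matched for level in this comparison. Among tested rows the median level was 1.99 CPM in new loci and 13.8 CPM in annotated genes. NewGene_801 was the strongest, with 222, 147 and 0 counts in WT and 173, 167 and 225 in Siysl1. WT replicate 3 alone lacked it. NewGene_525 and NewGene_396 also had 0 counts in 1 WT library and counts in all mutant libraries, and NewGene_1725 had 17 and 23 counts in 2 WT libraries and 0 in the other 4.

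In Siysl1 the differences ran along more than one line. NewGene_876 had 38 counts in replicate 1 and 0 in replicates 2 and 3, with 35, 26 and 21 in WT; it was not called with all libraries (edgeR adjusted p = 0.211). With a replicate block it was (adjusted p = 0.0359), and also without Siysl1 replicate 1, which leaves mutant libraries at 0 only. NewGene_2857 had the reverse, 0 in replicate 1 and 48 and 46 in the others, with 22, 34 and 44 in WT. NewGene_1685 had 0, 0 and 98 counts, so that replicate 3 differed there. Its log2 fold change was 0.10 with all libraries (edgeR adjusted p = 0.937) and -7.86 without Siysl1 replicate 3, a value that depends on a prior count because the remaining mutant libraries are at 0.

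Of all new loci, NewGene_7 set Siysl1 replicate 1 furthest apart. It had 722, 717 and 574 counts in WT and 18, 732 and 409 in Siysl1, so that replicates 2 and 3 were nearer to WT than to replicate 1. With all libraries it was not called (edgeR adjusted p = 0.124). With replicate 1 alone against WT its log2 fold change was -5.29, a value that the choice of the locus fixed and that is given as a description. It was also called without Siysl1 replicate 1 (-0.38, edgeR adjusted p = 0.0357), without Siysl1 replicate 2 (-1.76, adjusted p = 0.00674) and with a replicate block (-1.22, adjusted p = 0.0143). NewGene_551 was called as higher with all libraries (1.51, edgeR adjusted p = 0.0269), but had 7 counts in replicate 1 and 47 and 59 in the others, and with replicate 1 alone the log2 fold change was -0.85. Its call was lost without any one of WT replicates 1 and 3 and Siysl1 replicates 2 and 3 (edgeR adjusted p from 0.0721 to 0.155). Among the 851 new loci of at least 1 CPM, 2 to 5 in each library lay more than 1 log2 unit, on log2(CPM + 1), from the mean of the other libraries of its genotype, 2 of them in Siysl1 replicate 1. The genotype fields name different genes for the 3 mutant libraries; whether that goes with these values was not tested.

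The tables also differed in how steady a length they gave a new locus. Across libraries the implied length had a median coefficient of variation of 1.14% in 576 new loci with at least 50 counts in each library, and of 0.166% in 18377 such annotated genes. It was above 5% for 99 of the new loci, or 17.2%, and for 73 annotated genes, or 0.397%. In annotated genes matched for level and length the share was 0.972%. This comparison was added after the values had been seen. For NewGene_2740, the widest, the implied lengths were 2898, 2719 and 2987 bases in WT and 2752, 2162 and 1725 bases in Siysl1. NewGene_1200, one of the rising loci, had 6312, 4090 and 4770 bases in WT and 5027, 5425 and 5486 in Siysl1. Of the 99, 14 were longer in every Siysl1 library than in every WT library and 10 were shorter; in the others the genotypes overlapped. For such loci a fold change in FPKM and one in counts need not be equal.

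Loci with consecutive serial numbers showed little common change. Over 545 pairs of tested new loci the log2 fold changes correlated at 0.02 (Pearson) and 0.07 (Spearman's rho), a description across loci that share libraries. Of 128 pairs in which both loci were called, 75 went the same way, a count for which no baseline was computed. Both members reached 4-fold in 4 pairs. NewGene_1604 and NewGene_1605 both rose, by 3.59 and 5.61 on the log2 scale. NewGene_329 and NewGene_330 both fell, as did NewGene_1247 and NewGene_1248, whereas NewGene_2914 rose by 4.56 and NewGene_2915 fell by 2.98. None of the loci in these pairs is among the 10 largest rises or falls ranked above, although their folds are large enough. Each therefore missed a condition of that rule, such as 5 CPM in the higher genotype or a count in every library. Their folds may rest on few counts and are not comparable with the ranked ones. Serial numbers run from 1 to 3044, and the sources used here do not say whether neighbours in number are neighbours in the genome.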

How the data were processed

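Spikelet RNA of 3 WT and 3 Siysl1 libraries was compared; groups came from the library titles. The authors deposited a table of counts, whole numbers per row that were not normalized, and a table of FPKM, named so by the deposited file. The sources used here name no aligner, assembler, counting tool, strand setting or build, so overlapping, antisense and near-identical rows may share reads. Members, lists and tests were chosen with earlier results of these data known.

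All rows were fitted together in R 4.3.3 with edgeR 4.0.16 (TMM scaling, filterByExpr, quasi-likelihood F test, genotype as the only term, Benjamini-Hochberg adjustment). The SE of a log2 fold change is its size over the square root of F. The fit was tested on simulated data. DESeq2 1.42.0, limma 3.58.1 on log2(FPKM + 1) and log2(FPKM + 0.1), other scalings and filters, a replicate block and left-out libraries were alternatives. Implied length is the median over libraries with at least 10 counts of the count divided by FPKM and library total.

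Named loci were, by rule, the 10 highest by mean CPM and 5 by mean FPKM, the 10 largest rises and falls with at least 5 CPM in the higher genotype, a count in every library and no overlap, all loci of 1 genotype, the 5 longest, the 5 uncalled with the narrowest intervals, and the 5 in which Siysl1 replicate 1 differed most from replicates 2 and 3. Loci on in one plant and off in another, those of unsteady length and neighbouring pairs fall outside it and were named after their values were seen. Same-numbered libraries deviated together at r = 0.14, 0.08 and 0.03 across tested rows, not all above 0.1, so they were not treated as pairs.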

Additional observations from a re-analysis of the deposited data

How the results depend on the processing

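Of the 602 called new loci 588 were also called with a replicate block (277 higher and 335 lower in all), 489 by DESeq2 and 307 by limma on log2(FPKM + 1), none in the opposite direction. The numbers did not pair the libraries, although 5 of 6 correlated best with their own number, a hint from the data only. With 1 library left out, called loci ranged from 242 to 268 higher and from 295 to 349 lower, 132 to 150 and 148 to 172 at 2-fold, and 51 to 64 and 61 to 84 at 4-fold. At 4-fold there were 103 higher and 116 lower loci without a filter, 31 and 36 with a mean of 0.5 CPM, and 92 and 103 by DESeq2, which tests more rows; with Siysl1 replicate 1 alone 94 were lower. Limma on log2(FPKM + 1) with a mean of at least 1 FPKM, which tests 720 new loci, gave 142 lower, 27 and 25 at 2-fold and 1 and 4 at 4-fold; without that filter 31 and 27, and 1 and 4. With a pseudocount of 0.1 it gave 143 lower, 55 and 42 at 2-fold, and 13 and 13 at 4-fold. The cause was not tested.

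Loci of WT only were 14 at a minimum of 5 counts, 1 at 30, and 7 to 10 without 1 library; those of Siysl1 only were 20, 4, and 8 to 9. These moves follow from the definition. In unscaled counts, the share in new loci (Siysl1 minus WT) was 0.0179 percentage points without the most abundant locus. It was 0.0441 without the 2 most abundant, a setting added after seeing the data, and -0.0678 to -0.0437 without 1 library. The number detected differed by -1.0 at 0.5 CPM and by 4.5 to 25 without 1 library. Matched annotated genes were called in 60.0% of cases when matched on length alone, against 47.1% of new loci, and in 48.4 to 53.1% against 40.7 to 45.0% without 1 library. For 4-fold changes length alone gave 5.32% against 8.52%, which turned the order; without 1 library it was 12.2 to 12.9% against 8.59 to 10.2%, and in rows above the filter's level in all 6 libraries 3.20% against 2.89%. Of the named loci only NewGene_551 (-0.85) and NewGene_1685 (-7.84) with Siysl1 replicate 1 alone, and NewGene_1685 without Siysl1 replicate 3 (its log2 fold change ran from -7.86 to 0.69 without 1 library), turned direction with a call in either fit. A count of 0 leaves up to 3 counts possible, so loci called silent may be weakly expressed.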
